A study of Mus musculus with 8 samples.

Results

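Myelin is the membrane sheath that oligodendrocytes wrap around axons in the brain and spinal cord. The genes described here are 9 that code for its proteins or for enzymes and carriers of the cells that make it: Mbp, Mobp, Mal, Mog, Mag, Cldn11, Cnp, Aspa and Trf. They were found by gene symbol in the array's probe annotation, with no threshold on a measured value, and the list was drawn up with earlier results of these data known. All 9 were measured, on 17 array spots, out of 31334 genes tested, of which 19087 had a symbol. RNA came from the nucleus accumbens of male mice taken through conditioned place preference, a procedure in which an animal comes to link a place with an injection. Cocaine mice were given 15 mg/kg cocaine on days 2, 3 and 4, and saline mice were given saline solution on the same days of the same procedure. Each 2-colour array set the labelled RNA of 1 cocaine mouse against that of 1 saline mouse, and the question addressed by the series is which accumbens transcripts differ between the treatments. The cocaine RNA carried the dye Cy5 on 2 arrays (cocaine in Cy5, replicates 1 and 2) and the saline RNA carried it on the other 2 (saline in Cy5, replicates 1 and 2), and each array was read on 2 scanners, which gave 8 scans of 4 hybridisations. Each mouse has a label of its own, so the 4 hybridisations are 4 separate pairs of mice. The sources used here give no strain or age for them.

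Oligodendrocytes arise from precursor cells, stop dividing and then switch on a common program of myelin genes under transcription factors such as Olig2, Sox10 and Myrf. The sheath has a compact part, where cytoplasm is squeezed out between membrane layers by basic proteins, and a non-compact part that keeps cytoplasm and touches the axon. The nucleus accumbens is a grey matter region crossed by myelinated fibre bundles and bordered by white matter, and oligodendrocytes are a regular part of its tissue.

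Sox10 is known to bind sequences with the core ACAAAG, and in mouse Myrf is known to bind the forms CTGGCAC and CTGGTAC. The RefSeq promoter table (GRCm38.p6) held 9 windows of 250 bases before a transcript start for 7 of the genes, and these 3 motifs were searched in them on both strands, with no base shared between matches. ACAAAG was found in 4 of the 9 windows, those of 3 of the 7 genes (Mag, Mobp and Cnp), and in 16.5% of all 32851 windows of that length. CTGGCAC was found in 3 of the 9 windows, those of 2 genes (Mag and Cnp), and in 4.19% of all windows. CTGGTAC was found in 1 of the 9 windows, that of Mog, and in 1.83% of all windows. The 4 windows below are shown because they hold these matches, which are in capitals on the strand printed, so that CTTTGT is ACAAAG and GTACCAG is CTGGTAC read on the other strand. The Mobp window holds 6 matches to ACAAAG, and the Mag and Cnp windows shown hold 1 match to ACAAAG and 1 to CTGGCAC each. Another Mag window, not shown, overlaps the one shown and holds the same matches, and the remaining Mag window holds none. The sequences are from RefSeq, 5′ to 3′ on the gene's strand: Mag at chr7:30914923-30915172 (minus strand), Cnp at chr11:100574689-100574938 (plus strand), Mobp at chr9:120149492-120149741 (plus strand) and Mog at chr17:37023399-37023648 (minus strand). A match is a description of letters and not a measured binding site, and the windows of Cldn11, Aspa and Mal held none of the 3 motifs.
Mag: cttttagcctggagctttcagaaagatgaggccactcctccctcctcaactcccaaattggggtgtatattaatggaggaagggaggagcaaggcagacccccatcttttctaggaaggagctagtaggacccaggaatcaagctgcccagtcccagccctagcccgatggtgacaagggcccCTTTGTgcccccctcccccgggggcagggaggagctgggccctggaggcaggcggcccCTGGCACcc
Cnp: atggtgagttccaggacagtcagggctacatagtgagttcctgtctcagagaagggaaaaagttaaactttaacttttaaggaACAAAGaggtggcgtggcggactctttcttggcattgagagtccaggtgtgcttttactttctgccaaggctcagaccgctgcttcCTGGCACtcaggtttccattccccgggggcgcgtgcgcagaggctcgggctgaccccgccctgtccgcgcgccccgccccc
Mobp: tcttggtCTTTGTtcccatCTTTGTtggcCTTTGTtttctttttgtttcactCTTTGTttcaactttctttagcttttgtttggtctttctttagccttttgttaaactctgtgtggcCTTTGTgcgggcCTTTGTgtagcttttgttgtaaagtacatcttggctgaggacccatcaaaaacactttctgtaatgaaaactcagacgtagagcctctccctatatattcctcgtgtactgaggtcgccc
Mog: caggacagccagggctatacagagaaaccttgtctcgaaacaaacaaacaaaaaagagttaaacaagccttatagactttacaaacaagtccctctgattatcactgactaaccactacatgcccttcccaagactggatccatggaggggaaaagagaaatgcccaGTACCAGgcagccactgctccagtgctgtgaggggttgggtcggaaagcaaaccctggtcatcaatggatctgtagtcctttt

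The values are log2 ratios and hold no expression level, so the levels of the genes, and the labelled tissue through its marker levels, could not be read from them. The ratios are read as cocaine over saline, so a negative value is lower with cocaine. That direction is likely but not stated: it rests on reading the columns with cocaine in Cy5 as the first channel over the second, since titles name the first channel's mouse first. Every sign below turns if it runs the other way. The values are given in both of 2 forms. Centred ratios still hold the dye effect and are the basis of the test. Dye-profile ratios make single hybridisations comparable. For these, each scan was fitted by loess, over all spots, along each spot's mean ratio of Cy5 over the other dye, Cy3. That mean was taken from the Agilent scans of the same hybridisations, so it holds the spot's own values. Column medians before centring lay from -0.885 to -0.617 in the scans with cocaine in Cy5 and from 0.637 to 0.823 in those with saline in Cy5.

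None of the 9 myelin genes was called different between cocaine and saline mice. The errors, intervals and p-values given here are limma's moderated ones, in which a gene's variance is drawn toward that of all genes. They are therefore not the gene's own spread between hybridisations, which is seen in its single values. With limma's moderated test and Benjamini-Hochberg adjustment, 0 of 9 were called at an adjusted p below 0.05, beside 8 of 31334 genes (0.0255%), of which 7 were lower with cocaine (0.0223%). In dye-profile values no gene of the table was called. At an unadjusted p below 0.05 there were again 0 of 9, beside 6.04% of all genes. The fitted log2 ratios ran from -0.45 for Trf to 0.12 for Cnp, with 8 of 9 below 0 and a median of -0.20, against a median of 0.03 and 43.4% below 0 over all genes. In dye-profile values 9 of 9 were below 0, with a median of -0.24, against 50.2% of all genes. There, 1 gene (Aspa) had an unadjusted p below 0.05, beside 7.25% of all genes, and 3 genes (Mog, Cldn11 and Aspa) were below 0 in 4 of 4 hybridisations, beside 9.48% of all genes. The lowest adjusted p of any member was 0.824 in centred values and 0.670 in dye-profile values. The sign of the median rested on 1 hybridisation: without cocaine in Cy5 replicate 1 it was 0.12 in centred values, although it was -0.16 without it in dye-profile values. Ratios of bulk tissue could not tell a change in oligodendrocyte number from a change in myelin RNA per cell, and neither was tested.

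**Figure D1:**
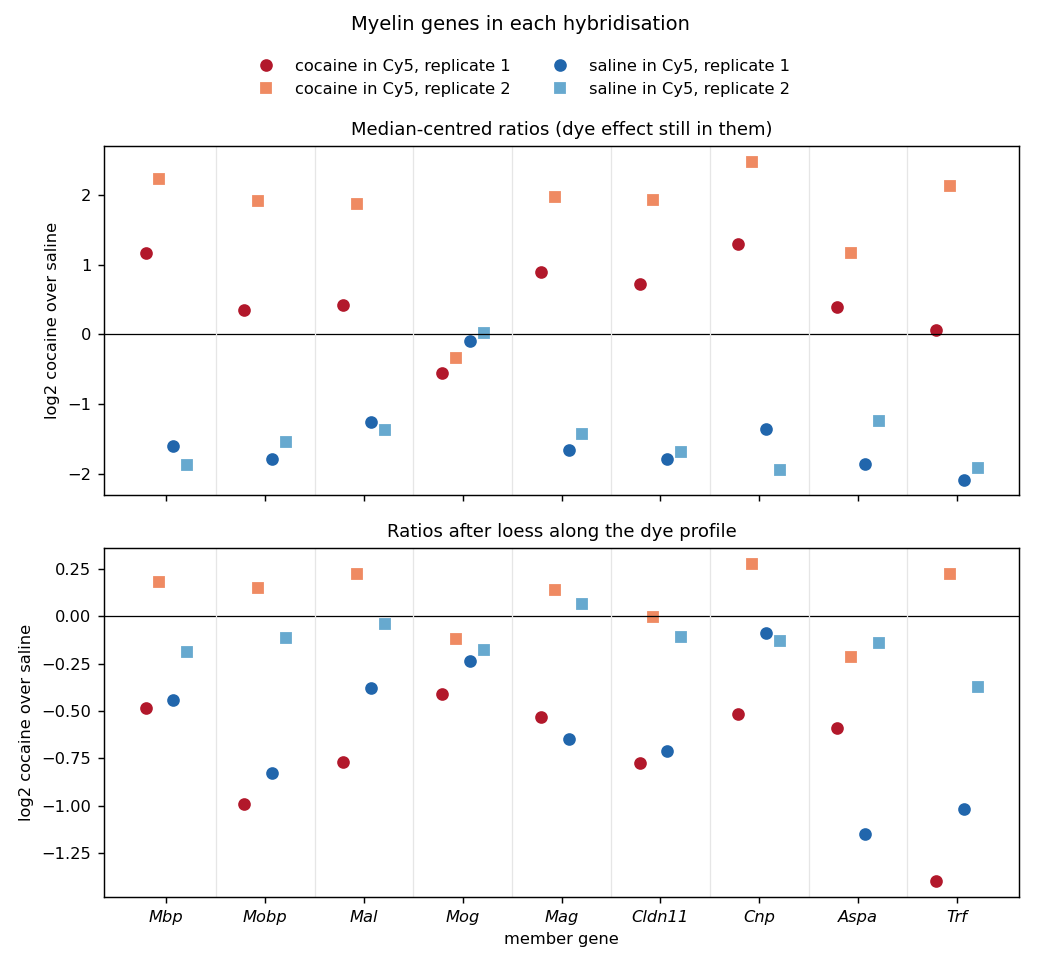
Log2 ratios of cocaine over saline for the 9 myelin genes, 1 point per hybridisation (mean of its 2 scans), as centred values (top, from -2.08 to 2.47) and as dye-profile values (bottom, from -1.40 to 0.28). In the top panel 8 genes are high with cocaine in Cy5 and low with saline in Cy5, and Mog lies slightly the other way; in the bottom panel replicate 1 of each orientation (circles) lies below replicate 2 (squares) for most genes.

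Among the proteins of compact myelin, Mbp codes for myelin basic protein, which holds the inner faces of the membrane together. Its centred log2 ratios were 1.16 and 2.23 in replicates 1 and 2 of cocaine in Cy5, and -1.60 and -1.87 in replicates 1 and 2 of saline in Cy5. The sign followed the dye and not the treatment, and averaged over both orientations the log2 ratio was -0.02 ± 0.19 (SE, n = 4 hybridisations, limma adjusted p = 0.991). As a fold this is 0.985, with a 95% interval from 0.744 to 1.31. The dye-profile ratios of Mbp were -0.48 and 0.18 with cocaine in Cy5, and -0.44 and -0.19 with saline in Cy5. Cocaine in Cy5 replicate 2 was thus above 0 and the other 3 hybridisations were below it.

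Mobp codes for a small basic protein of oligodendrocytes that lies, like Mbp, between the membrane layers of compact myelin. Its centred ratios were 0.35 and 1.91 with cocaine in Cy5, and -1.79 and -1.54 with saline in Cy5. The fitted log2 ratio was -0.27 ± 0.21 (SE, n = 4, limma adjusted p = 0.891), with a 95% interval from -0.72 to 0.18. In dye-profile values Mobp stood at -0.99 and 0.15 with cocaine in Cy5, and at -0.83 and -0.12 with saline in Cy5. The replicates of each orientation lay far apart, with replicate 1 the lower one in both.

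Mal codes for a myelin proteolipid that takes part in sorting membrane proteins and lipids. Centred ratios of Mal were 0.43 and 1.87 with cocaine in Cy5, and -1.25 and -1.36 with saline in Cy5. The fit gave -0.08 ± 0.21 (SE, n = 4, limma adjusted p = 0.969). Dye-profile ratios were -0.77 and 0.22 with cocaine in Cy5, and -0.38 and -0.04 with saline in Cy5, so that again only cocaine in Cy5 replicate 2 was above 0.

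Of the surface and adhesion proteins, Mog codes for myelin oligodendrocyte glycoprotein, found on the outermost layer of the sheath. Its centred ratios were -0.55 and -0.34 with cocaine in Cy5, and -0.09 and 0.02 with saline in Cy5. Mog was the member without a dye effect past the test. The dye coefficient, which says how far a ratio leans to the channel with Cy5, was called toward Cy5 in 8 of 9 members, beside 34.5% of all genes, and was -0.21 for Mog (limma adjusted p = 0.276). The treatment fit for Mog was -0.24 ± 0.17 (SE, n = 4, limma adjusted p = 0.872). Dye-profile ratios were -0.41 and -0.12 with cocaine in Cy5, and -0.24 and -0.18 with saline in Cy5, all below 0 and within 0.288 of each other, which was the narrowest range among the 9 genes. Its 2 spots did not read alike, as described with the single spots.

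Mag codes for myelin-associated glycoprotein, which sits on the innermost layer and binds the axon. Mag had centred ratios of 0.89 and 1.97 with cocaine in Cy5, and -1.66 and -1.43 with saline in Cy5. The fitted log2 ratio was -0.06 ± 0.19 (SE, n = 4, limma adjusted p = 0.977). In dye-profile values Mag read -0.53 and 0.14 with cocaine in Cy5, and -0.65 and 0.06 with saline in Cy5. It was the one member with replicate 1 of both orientations below 0 and replicate 2 of both above it.

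Cldn11 codes for claudin-11, which forms the tight junctions between layers of the sheath. Cldn11 had centred ratios of 0.72 and 1.93 with cocaine in Cy5, and -1.79 and -1.68 with saline in Cy5. The fit gave -0.20 ± 0.20 (SE, n = 4, limma adjusted p = 0.912). Its dye-profile ratios were -0.78 and -0.004 with cocaine in Cy5, and -0.71 and -0.11 with saline in Cy5. All 4 were below 0, that of cocaine in Cy5 replicate 2 only just.

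Of the enzymes, Cnp codes for a cyclic nucleotide phosphodiesterase that helps keep cytoplasmic channels open in the sheath. Cnp had centred ratios of 1.29 and 2.47 with cocaine in Cy5, and -1.36 and -1.95 with saline in Cy5. It had the one fitted log2 ratio above 0 among the members, 0.12 ± 0.20 (SE, n = 4, limma adjusted p = 0.951), or a fold of 1.08 with a 95% interval from 0.807 to 1.45. After loess along the dye profile the fitted ratio was -0.11 ± 0.15 (SE). Its dye-profile ratios were -0.52 and 0.28 with cocaine in Cy5, and -0.09 and -0.13 with saline in Cy5, so that only cocaine in Cy5 replicate 1 stood well below 0. The direction for Cnp therefore differs between the normalizations.

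Aspa codes for aspartoacylase, which splits N-acetylaspartate from neurons into aspartate and the acetate used for myelin lipids. Aspa had centred ratios of 0.39 and 1.17 with cocaine in Cy5, and -1.86 and -1.24 with saline in Cy5. The fitted log2 ratio was -0.39 ± 0.19 (SE, n = 4, limma adjusted p = 0.824), or a fold of 0.766 with a 95% interval from 0.581 to 1.01. Dye-profile ratios were -0.59 and -0.22 with cocaine in Cy5, and -1.15 and -0.14 with saline in Cy5. All 4 were below 0, and the fit to them was -0.53 ± 0.19 (SE), with -0.05 at the upper end of its 95% interval (limma adjusted p = 0.670 over all genes). In centred values the Aspa ratio was -0.19 or -0.58 when replicate 1 or replicate 2 of cocaine in Cy5 was left out, and -0.23 when replicate 1 of saline in Cy5 was.

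Trf codes for transferrin, the iron carrier that oligodendrocytes make in the brain. Its centred ratios were 0.07 and 2.13 with cocaine in Cy5, and -2.08 and -1.92 with saline in Cy5. The fit of -0.45 ± 0.24 (SE, n = 4, limma adjusted p = 0.846) had the lowest estimate and the largest error of the 9, and as a fold it was 0.732 with a 95% interval from 0.515 to 1.04. Dye-profile ratios were -1.40 and 0.22 with cocaine in Cy5, and -1.02 and -0.37 with saline in Cy5, a range of 1.62 that was the widest among the members. Trf was not called with all 4 hybridisations, and its size rested on single ones. Without cocaine in Cy5 replicate 2 the log2 ratio was -0.96, and without cocaine in Cy5 replicate 1 it was 0.06. A single hybridisation then stands for its orientation and is taken to vary like the others.

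**Figure D2:**
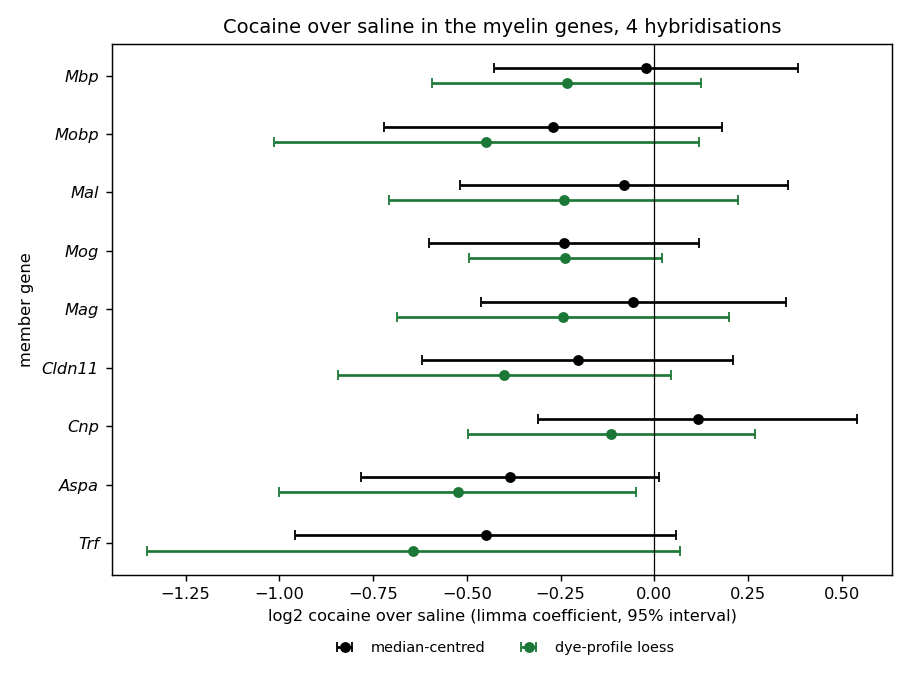
Fitted log2 ratio of cocaine over saline for each myelin gene with its 95% interval (limma, 4 hybridisations), from centred values (black) and from dye-profile values (green). The estimates from centred values run from -0.45 (Trf) to 0.12 (Cnp), and each interval includes 0 except the dye-profile interval of Aspa.

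The members were low together in 2 of the 4 hybridisations. In dye-profile values their median was -0.59 in cocaine in Cy5 replicate 1 and -0.65 in saline in Cy5 replicate 1, with 9 of 9 members below 0 in each. It was 0.15 in cocaine in Cy5 replicate 2, where 3 of 9 were below 0, and -0.13 in saline in Cy5 replicate 2, where 8 of 9 were. Over all genes the medians of the 4 hybridisations lay between -0.02 and 0.01. Within a hybridisation, the members ran from -1.40 (Trf) to -0.41 (Mog) and from -0.22 (Aspa) to 0.28 (Cnp) in replicates 1 and 2 of cocaine in Cy5. They ran from -1.15 (Aspa) to -0.09 (Cnp) and from -0.37 (Trf) to 0.06 (Mag) in replicates 1 and 2 of saline in Cy5. The 9 genes come from the same RNA of the same mice and are not replicates.

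The hybridisations with low myelin ratios were those of the mice labelled CocV3-SalB5 and SalN9-CocV4, and the others were CocN3-SalB8 and SalN5-CocB7. The cocaine mouse of each low pair has the letter V in its label. The sources used here do not say what the letters stand for. The pattern was seen in the values, and no test was made of it. The normalization bears on it. In centred values replicate 1 was below replicate 2 for 9 of 9 members with cocaine in Cy5, by 0.21 (Mog) to 2.06 (Trf), whereas with saline in Cy5 the difference of replicate 1 minus replicate 2 ran from -0.62 (Aspa) to 0.59 (Cnp).

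The striatal projection neuron markers had about the same dye effect as the members (medians of 1.42 and 1.49 for the dye coefficient), so the lists can be set side by side without the loess. Centred medians of the members were 0.43 and 1.93 with cocaine in Cy5, and -1.66 and -1.54 with saline in Cy5. Those of the 12 striatal markers measured were 1.70 and 1.87 with cocaine in Cy5, and -0.65 and -1.42 with saline in Cy5. The members minus the striatal markers gave -1.27 and 0.05 with cocaine in Cy5, and -1.01 and -0.12 with saline in Cy5. With cocaine in Cy5 it was the members that differed between the replicates, whereas with saline in Cy5 the striatal markers differed and the members hardly did. In dye-profile values the striatal medians were 0.24 and 0.01 with cocaine in Cy5, and 0.24 and 0.09 with saline in Cy5, higher in the pairs where the members were lower. Differences from lists with a smaller dye effect still hold part of that effect. Against astrocyte markers (median dye coefficient 0.82) they were -0.55 and 0.82 with cocaine in Cy5, and -0.94 and -0.71 with saline in Cy5. Against other mature oligodendrocyte genes (0.44) they were 0.27 and 1.47 with cocaine in Cy5, and -0.65 and -1.03 with saline in Cy5. The striatal list was picked for the purpose after the values were seen, and the comparison is a description.

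**Figure D3:**
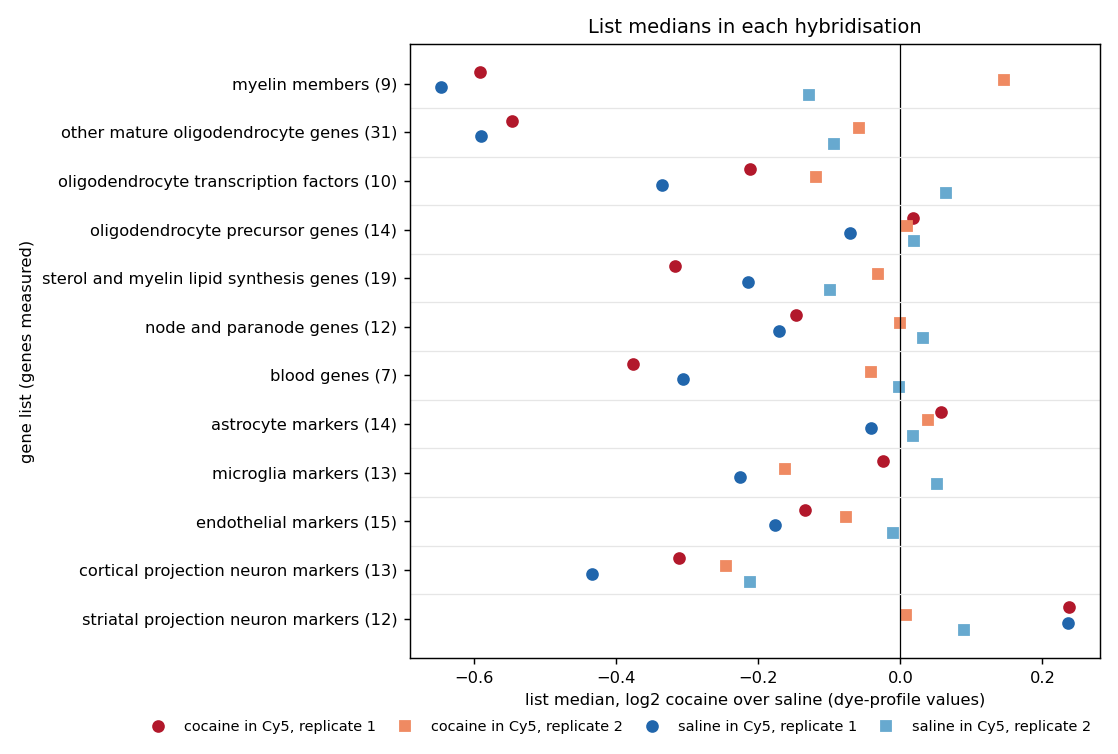
Median dye-profile log2 ratio of cocaine over saline of each gene list, 1 point per hybridisation; the number of genes measured is in brackets. The myelin genes and the other mature oligodendrocyte genes are lowest in replicate 1 of each orientation (circles, from -0.65 to -0.55), while the precursor genes lie between -0.07 and 0.02. The transcription factor, sterol and lipid, and node and paranode lists are also lower in replicate 1 of each orientation than in replicate 2. So are the blood, endothelial and cortical lists. The striatal list is higher there, and the precursor, astrocyte and microglia lists are lower there with saline in Cy5 only.

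Other genes of mature oligodendrocytes were also mostly below 0. Of 35 listed, 31 were measured, 0 were called, and 26 were below 0 with a median fitted log2 ratio of -0.23 in centred values, which was -0.018 without cocaine in Cy5 replicate 1. In dye-profile values 29 of 31 were below 0, and their medians were -0.55 and -0.06 with cocaine in Cy5, and -0.59 and -0.09 with saline in Cy5. The lowest were Klk6, a secreted protease, at -0.56 ± 0.21, and Ppp1r14a, an inhibitor of myosin phosphatase, at -0.55 ± 0.19 (SE, limma adjusted p = 0.766 and 0.690). The highest were Sirt2, a deacetylase of the myelin sheath, at 0.21 ± 0.19, and Gjb1, a gap junction protein, at 0.16 ± 0.18 (SE).

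The genes that direct or precede the mature state read closer to 0. Of the oligodendrocyte transcription factors 10 of 11 were measured, 5 were below 0 and the median was -0.03. Their lowest were Zfp536 at -0.22 and Nkx6-2 at -0.20, and their highest were Sox8 at 0.33 and Olig2 at 0.11. Dye-profile medians of the factors were -0.21 and -0.12 with cocaine in Cy5, and -0.34 and 0.06 with saline in Cy5. All 14 precursor genes were measured, with 5 below 0 and a median of 0.06. Bcas1 (-0.39), which marks cells that are just starting to myelinate, and C1ql1 (-0.29) were their lowest, and Lhfpl3 (0.21) and Cspg5 (0.41) their highest. Their dye-profile medians were 0.02 and 0.01 with cocaine in Cy5, and -0.07 and 0.02 with saline in Cy5. No gene of either list was called, and the difference between these lists and the members was not tested. The lists were also not matched for the dye effect. Median dye coefficients were 0.43 for the factors and -0.18 for the precursor genes, against 1.49 for the members.

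Genes that work with the members are described in the order of their roles, and 0 of them were called in any list. Mag and the Nogo protein belong to a system by which myelin limits axon growth. Of its 9 receptors and ligands, all measured, 5 were below 0 with a median of -0.01, from Rtn4r, the Nogo receptor, at -0.30 and Omg at -0.03 to Rtn4rl1 at 0.10 and Lrp1 at 0.27. Of the 12 genes of the node and paranode, where sheath and axon meet, 4 were below 0 with a median of 0.04. Cntn2 (-0.39) and Epb41l3 (-0.12) were lowest and Cntn1 (0.19) and Cntnap2 (0.23) highest in that list.

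Of 22 genes of sterol and myelin lipid synthesis 19 were measured, 12 were below 0 and the median was -0.05. Its lowest were Fa2h at -0.39 and Gal3st1 at -0.32, which make the hydroxylated and sulfated lipids of myelin and are also among the 31 genes above, and its highest were the sterol enzymes Dhcr7 at 0.17 and Lss at 0.32. Around Aspa, 7 of 8 genes of N-acetylaspartate metabolism were measured and 3 were below 0, with a median of 0.11. They ran from Folh1 (-0.15) and Acss2 (-0.10) to Rimkla (0.28) and Acy1 (0.30). Around Trf, 7 of 10 iron handling genes were below 0 with a median of -0.07, from Hamp (-0.30) and Ireb2 (-0.20) to Cp (0.10) and Ftl1 (0.37), the light chain of the iron store ferritin. Of 5 genes of peripheral nerve myelin 3 were measured, Pmp2 at -0.16, Egr2 at -0.09 and Pmp22 at -0.03. In dye-profile values the sterol and lipid list had medians of -0.32 and -0.03 with cocaine in Cy5, and -0.21 and -0.10 with saline in Cy5. Those of the iron list were -0.27 and -0.06, and -0.19 and -0.06. Both were lower in the pairs where the members were low. The N-acetylaspartate list, at 0.25 and -0.10, and 0.10 and -0.01, was higher there. The peripheral genes were lower there with saline in Cy5 only.

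Markers of other cells and regions also differed between the hybridisations, and their part in the myelin values was not tested. In dye-profile values the 7 blood genes measured had medians of -0.38 and -0.04 with cocaine in Cy5, and of -0.31 and -0.002 with saline in Cy5, low in the same pairs as the members. The cortical projection neuron list holds genes, such as Bcl11b and Foxp2, that are not confined to cortex. Its 13 markers measured had medians of -0.31 and -0.25 with cocaine in Cy5, and of -0.43 and -0.21 with saline in Cy5. Of these, 3 were called lower with cocaine in centred values, Tbr1 at -1.45, Nrn1 at -1.71 and Neurod6 at -1.13 (limma adjusted p = 0.00602, 0.0143 and 0.0375), and 0 in dye-profile values. The 14 astrocyte markers had medians of 0.06 and 0.04 with cocaine in Cy5, and of -0.04 and 0.02 with saline in Cy5. The fitted medians in centred values were 0.14 for astrocyte, 0.01 for microglia, -0.02 for endothelial, 0.03 for choroid plexus and ependymal, -0.15 for blood, -0.23 for cortical and 0.32 for striatal markers.

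Single markers of these cells show the span of each list in fitted centred log2 ratios. Astrocyte markers ran from Gfap (-0.06) and Sox9 (-0.05) to Agt (0.27) and Aldh1l1 (0.33). Microglia markers ran from Itgam (-0.10) and Gpr34 (-0.07) to Laptm5 (0.16) and Trem2 (0.23), and endothelial markers from Kdr (-0.30) and Flt1 (-0.15) to Esam (0.18) and Slc2a1 (0.22). All 12 striatal markers were above 0, from Rasd2 (0.02) and Tac1 (0.09) to Adcy5 (0.61) and Ppp1r1b (0.69), and in dye-profile values 1 of 12 was below 0. Cortical markers reached up to Foxp2 (0.27) and Lamp5 (0.38). Choroid plexus and ependymal markers ran from Tmem212 (-0.28) and Folr1 (-0.25) to Clic6 (0.37) and Kcne2 (0.43), and blood genes from S100a9 (-0.30) and Hbb-bt (-0.23) to Hba-a1 (0.03) and Hba-a2 (0.06). Apart from the cortical genes given above, none of these was called.

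Single spots showed where a member's value was made of unlike parts. Mbp was read by 3 spots, and spot 1 is annotated to another reference transcript than spots 2 and 3. The dye-profile ratios of Mbp spot 1 were 0.42 and -0.26 with cocaine in Cy5, and 0.51 and -0.59 with saline in Cy5. Spot 2 read -1.26 and 0.17 with cocaine in Cy5, and -1.13 and -0.15 with saline in Cy5, and spot 3 read -0.62 and 0.64, and -0.71 and 0.17. Spot 1 was thus high in the pairs where spots 2 and 3 were low, and without it the fitted log2 ratio of Mbp was -0.14 in centred values (a choice made after the values were seen).

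The spots of Mog had dye coefficients of opposite sign, -0.82 for spot 1 and 0.41 for spot 2, which averaged to the small dye effect of the gene. Spot 2, the one annotated to the reference transcript, read -0.60 and -0.18 with cocaine in Cy5, and -0.68 and -0.36 with saline in Cy5, again as dye-profile ratios. Spot 1 read -0.22 and -0.07 with cocaine in Cy5, and 0.20 and -0.001 with saline in Cy5. With spot 2 alone the fitted log2 ratio of Mog was -0.39 (limma adjusted p = 0.804). Mobp spot 1 had the lowest fit of the 17 spots, -0.62 (limma adjusted p = 0.273 over all spots), against -0.01 and -0.18 for spots 2 and 3. In that fit over all spots the moderated error was 0.2035 for each of the 17, so it does not reflect the spread of a single spot. The fitted log2 ratios of the spots lay close together for Mal (-0.12 and -0.04), Mag (-0.06 and -0.05) and Aspa (-0.35 and -0.42), while Cldn11, Cnp and Trf had 1 spot each.

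**Figure D4:**
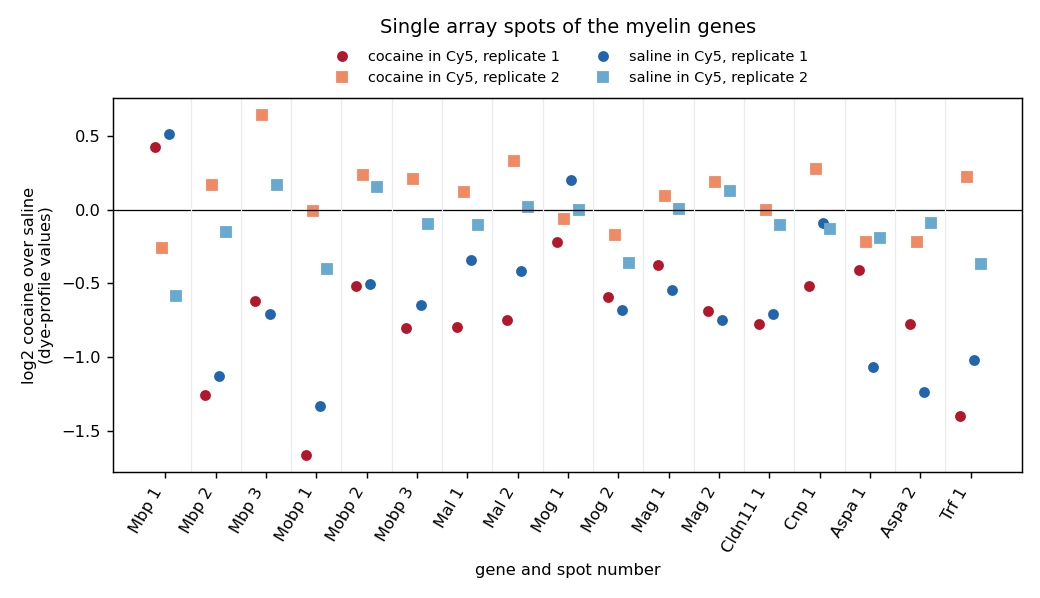
Dye-profile log2 ratio of cocaine over saline for each of the 17 spots of the myelin genes, 1 point per hybridisation. Mbp spot 1 reads 0.42 and 0.51 in the pairs (circles) where spots 2 and 3 read between -1.26 and -0.62, and Mobp spot 1 reaches -1.66.

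On both scanners the members were lowest in replicate 1 of each orientation, although the order of those replicates differed between the scanners. The dye-profile medians were -0.49 on the Axon and -0.77 on the Agilent scanner for cocaine in Cy5 replicate 1, and 0.21 and 0.09 for replicate 2. For saline in Cy5 they were -0.67 and -0.60 for replicate 1, and -0.15 and -0.08 for replicate 2. The median absolute difference between the scans of a hybridisation was from 0.08 to 0.12 in dye-profile values and from 0.89 to 1.30 in centred values. In centred values the members lay farther from 0 on the Agilent scanner in 4 of 4 hybridisations.

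The 5 named genes outside all lists whose dye-profile values lay nearest to the members' medians over the 4 hybridisations were Rph3a, Dydc2, Xlr4b, Htr3a and Itpk1, at Euclidean distances of 0.128 to 0.148 on the log2 scale. The members themselves lay at 0.202 to 0.924 from their own medians, and the median named gene lay at 0.990. Rph3a codes for rabphilin 3A of synaptic vesicles and Htr3a for a serotonin receptor subunit. With 18883 genes set against 4 values, near neighbours are found for any such pattern.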

How the data were processed

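The table as deposited holds log2 ratios between the channels of each array, with 44290 rows in each of 8 scans. The base and the unit were read from the values. The sources used here do not give the authors' image analysis, background correction or normalization, and they name no genome build. Amplification and labelling started from 75 ng of RNA, per the labels' protocols. A stop value of 16.61 in size, in 4 to 37 rows of each scan, was treated as missing.

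The rows do not follow the order of the platform's probe annotation. They were matched to it by a fixed rule of array position, under which the correlation over 7325 same-accession probe pairs was 0.498, against -0.007 in file order, and every gene name rests on that match. With it 32042 rows had 1 symbol, 47 had several and 12201 had none. The correlation of Axon minus Agilent differences across rows was 0.514 and 0.517 within an orientation and -0.542 to -0.492 across orientations, so the columns were read as already turned to 1 treatment direction.

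Each scan was centred on its median, spots of a symbol were averaged, and the 2 scans of a hybridisation, being the same labelled RNA, were averaged to 1 replicate. limma 3.58.1 in R 4.3.3 (lmFit, eBayes, two-sided, Benjamini-Hochberg over 31334 genes, called below 0.05) was fitted with a cocaine and a dye coefficient, with 2 residual and 15.9 prior degrees of freedom. The dye-profile values come from loess (span 0.3, 4 iterations) of each scan along each spot's mean Cy5 over Cy3 ratio in the Agilent scans. The fit was tried on simulated data with the same independent spread for every gene and with changes larger than the members' ratios. That trial does not test the fit at the size of those ratios. Intervals are at 95%. Arrays hold no counts, and their number limits the precision.

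All members are named, and of each of the other 16 lists every gene called and the 2 lowest and 2 highest, and the 5 genes outside all lists nearest to the members. The members and lists were chosen with earlier results of these data known, as was the dye-profile alternative. The alternatives tried were the dye-profile loess, either scanner alone, no dye coefficient, other centring, the median of probes, complete scans only, each hybridisation left out and the sign turned. The series' design names 5 measurements. The fit rests on 4 hybridisations.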

Additional observations from a re-analysis of the deposited data

Results flagged for a closer look

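The median of the 14 oligodendrocyte precursor genes in dye-profile values stood apart in 1 hybridisation. It was -0.07 in saline in Cy5 replicate 1 and between 0.01 and 0.02 in the others, so that the gap to the nearest was 0.896 of the whole range, above Dixon's 95% limit for 4 values. In all, 26 sets of 4 values (the 9 members and 17 list medians) were looked at and 1 stood apart, where chance gives about 1 in 20. None of the 9 myelin genes stood apart in this way.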

How the results depend on the processing

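The members' median log2 ratio of -0.20 was 0.20 with the sign turned and from -0.44 to 0.12 with 1 hybridisation left out. That of the other mature oligodendrocyte genes, -0.23, was 0.23 with the sign turned and from -0.39 to -0.02 with 1 left out. In dye-profile values, an addition made after seeing the data, these ranges were -0.49 to -0.16 and -0.40 to -0.19. Of the 9 members 0 were called, and 0 to 1 with 1 hybridisation left out. The 8 genes called over the whole table were 0 in dye-profile values, on Axon scans alone, with centring on probes with a symbol and with no dye coefficient. They were 20 on Agilent scans alone, 30 with the median of probes, 120 with every spot on its own (added after seeing the data) and 66 to 288 with 1 hybridisation left out. With the sign turned, single members were 0.39 (Aspa), 0.20 (Cldn11), -0.12 (Cnp), 0.056 (Mag), 0.081 (Mal), 0.022 (Mbp), 0.27 (Mobp), 0.24 (Mog) and 0.45 (Trf). Cnp was -0.11 in dye-profile values and Mbp 0.0017 on Agilent scans alone. With 1 hybridisation left out, Mbp ran from -0.29 to 0.24, Mobp ran from -0.66 to 0.12, Mal ran from -0.44 to 0.28, Mag ran from -0.33 to 0.21, Cldn11 ran from -0.51 to 0.10, Aspa ran from -0.58 to -0.19, Mog ran from -0.29 to -0.19, Cnp ran from -0.18 to 0.41 and Trf ran from -0.96 to 0.063. Of the single-member values under alternatives other than the turned sign, 12 changed sign, 1 newly passed the test and 88 did neither; the cause was not tested. The fit is paired by array, since each ratio sets 1 cocaine mouse against 1 saline mouse. No pairing between hybridisations was used, because the replicate numbers are only the order of the sample numbers. Signal over background is not held by ratios.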
